A study of Mus musculus with 12 samples.

Results

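The genes followed here are 10 members of the BAF (SWI/SNF) chromatin remodelling complexes: *Ss18*, its paralogue *Ss18l1*, and the partner subunit genes *Smarca4*, *Smarcc1*, *Smarcb1*, *Smarcd1*, *Smarce1*, *Arid1a*, *Dpf2* and *Brd9*. They were matched by symbol, and all 10 were found among the 54146 genes of each library. RNA-seq was done on mESCs (mouse embryonic stem cells) of genotype Prdm10F/F; Rosa26-CreERT2, strain C57BL/6, grown in serum with LIF on gelatin. Every library, controls included, came from cells with both alleles of *Prdm10* floxed and with a Cre recombinase that hydroxytamoxifen (OHT) activates. Cells received 50 nM OHT or the solvent ethanol (EtOH) for 24 h, and RNA was taken at Day 2 or Day 4, in 4 groups with 3 libraries in each. No group received OHT without floxed alleles, so that an effect of OHT or of active Cre cannot be told apart from that of the deletion.

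BAF complexes use the energy of ATP to slide or evict nucleosomes, and in embryonic stem cells they keep enhancers and promoters accessible to pluripotency factors. A common core is built around the ATPase SMARCA4 (BRG1) with SMARCC, SMARCD, SMARCB1 and SMARCE1 subunits. Further subunits then make canonical BAF (ARID1A or ARID1B with a DPF protein), PBAF (ARID2, PBRM1, PHF10 and BRD7) or non-canonical BAF (BRD9 with BICRA or BICRAL). SS18 binds the ATPase module of canonical and non-canonical BAF, and it is known from synovial sarcoma, where it is fused to an SSX protein. SS18L1 (CREST) is its close relative and takes its place in the BAF complex of neurons.

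The libraries held 35017667 to 41409992 expected counts each. All 9 markers of embryonic stem cells were above 1 TPM in every group. Their summed TPM was 2602 to 2639 in EtOH and 2643 to 2814 in OHT at Day 2, and 2429 to 2712 against 2800 to 2905 at Day 4. At an adjusted p below 0.05 (DESeq2), 1 marker was higher and 4 were lower at Day 2, against 9.17% and 10.6% of all genes tested. At Day 4, 6 were higher and 1 was lower, against 23.5% and 21.7%. *Prdm10* itself had a higher count in the libraries labelled OHT, by a log2 fold change of 1.44 (SE 0.07) at Day 2 and 1.21 (SE 0.06) at Day 4. A count over the whole gene does not check the loss of the floxed exon, so groups are named by their labels.

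*Ss18* and *Ss18l1* were the 2 genes among the 10 that are on the study's ChIP-seq list of genes bound by PRDM10. *Ss18l1* begins at chr2:180042509 on the plus strand (GRCm38, GENCODE vM21), and the gene ends at 180070201. The proteasome subunit gene *Psma7* occupies chr2:180036374-180042433 on the minus strand, which leaves 75 bases between their starts. The study's DNA binding probes are shown next to the best match near *Ss18l1*, because they display what was searched for. The capitals mark, in both probes, the 8 bases that the mutant probe changes, and in the genomic stretches the bases that match the 11-letter core TGGTCGCGCCC of the wild-type probe.
WT probe: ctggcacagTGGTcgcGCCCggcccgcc
MUT probe: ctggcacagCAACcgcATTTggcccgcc
Ss18l1: gagcttcggTGGTtcCGCCCgccctgcc
Hdac2: cagccgcagTGGTCGCtCCCgcctcgca
The *Ss18l1* stretch is chr2:180042498-180042525 on the minus strand (RefSeq promoters, GRCm38.p6) and matches 9 of the 11 letters. The *Hdac2* stretch, chr10:36974490-36974517 on the plus strand, matches 10, and it is shown because *Hdac2* was the gene whose pattern was most like that of *Ss18*. Both strands of each window of 250 bases before to 50 bases after a gene start were searched. Of 32851 such windows, 10.4% held a stretch with at least 9 matching letters, and 0.788% held one with at least 10. Promoters of 8 of the 10 genes were among these windows, and their best matches ranged from 7 to 9 letters, with 9 also in *Smarca4*, *Smarcc1* and *Smarcd1*. Promoters of *Ss18* and *Smarce1* were not among them, so nothing is known here of matches near these genes. A match is a description of letters and not a binding site.

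*Ss18* fell to 0.427 of its control level at Day 2 and to 0.428 at Day 4, while *Ss18l1* did not rise but fell as well. At Day 2, *Ss18* had 4826, 4621 and 4535 normalised counts in EtOH and 2012, 2044 and 1906 in OHT, where a normalised count is the expected count divided by DESeq2's size factor. At Day 4 the values were 5016, 4763 and 4762 in EtOH and 2045, 2075 and 2108 in OHT. Every OHT library lay below every EtOH library, and the libraries within each group lay close together. The log2 fold change was −1.23 (SE 0.05, adjusted p = 9.58e-127, DESeq2) at Day 2 and −1.23 (SE 0.04, adjusted p = 3.7e-176, DESeq2) at Day 4. The difference between the 2 changes was 0.01 on the log2 scale, with a 95% interval from −0.11 to 0.12 and an adjusted p of 0.965 (DESeq2 interaction test). In EtOH alone *Ss18* differed by 0.05 between the days (SE 0.04, adjusted p = 0.378, DESeq2). Of 11644 genes above a mean of 100, 0.447% were called with a fall of at least 2-fold at Day 2, and 0.952% of 11555 at Day 4. *Ss18* stood 46th and 77th from the most negative log2 fold change on the respective days.

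*Ss18l1*, the paralogue, had 369, 383 and 360.4 normalised counts in EtOH and 205, 231 and 185 in OHT at Day 2. At Day 4 it had 330.3, 324 and 318 in EtOH and 142, 146 and 164 in OHT. Its groups did not overlap on either day. The log2 fold change was −0.84 (SE 0.13, adjusted p = 1.82e-09, DESeq2) at Day 2 and −1.11 (SE 0.13, adjusted p = 2.39e-15, DESeq2) at Day 4. The point estimate was lower at Day 4, but the difference of −0.26 (95% interval −0.58 to 0.05) missed the threshold (adjusted p = 0.245, DESeq2). *Ss18l2*, a shorter relative that is no BAF subunit in the lists used here, had a log2 fold change of −0.24 at Day 2 (SE 0.12, adjusted p = 0.158, DESeq2) and fell at Day 4 by 0.29 on the log2 scale (SE 0.11, adjusted p = 0.0329, DESeq2). The Day 4 call on *Ss18l2* was lost when any 1 of the 6 libraries was left out (adjusted p from 0.0637 to 0.156, DESeq2).

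*Psma7*, the gene that runs away from *Ss18l1* on the other strand and encodes a proteasome core subunit, also fell on both days. It had 7732, 7399 and 7273 normalised counts in EtOH against 6103, 5876 and 5853 in OHT at Day 2, and 7036, 7079 and 7003 against 5267, 5182 and 4972 at Day 4. The log2 fold change of *Psma7* was −0.33 (SE 0.04, adjusted p = 1.47e-12, DESeq2) at Day 2 and −0.46 (SE 0.04, adjusted p = 4.04e-35, DESeq2) at Day 4, smaller in size than those of *Ss18l1*. *Psma7* is on the list of bound genes too, and it was looked at after its position had been seen. The study linked peaks to genes by their distance from the gene body. With starts so close, the same peak could place both *Psma7* and *Ss18l1* on the list. *Psma8*, which begins at chr18:14706151, beyond the start of *Ss18* at 14682914, was likewise looked at and is not on that list. Every OHT library of *Psma8* was lower on both days, against 26.9% and 29.5% of all genes. Its log2 fold change was −0.13 at Day 2, not called, and −0.33 at Day 4. The Day 4 call was lost without EtOH replicate 2 (adjusted p = 0.0508, DESeq2).

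**Figure D1:**
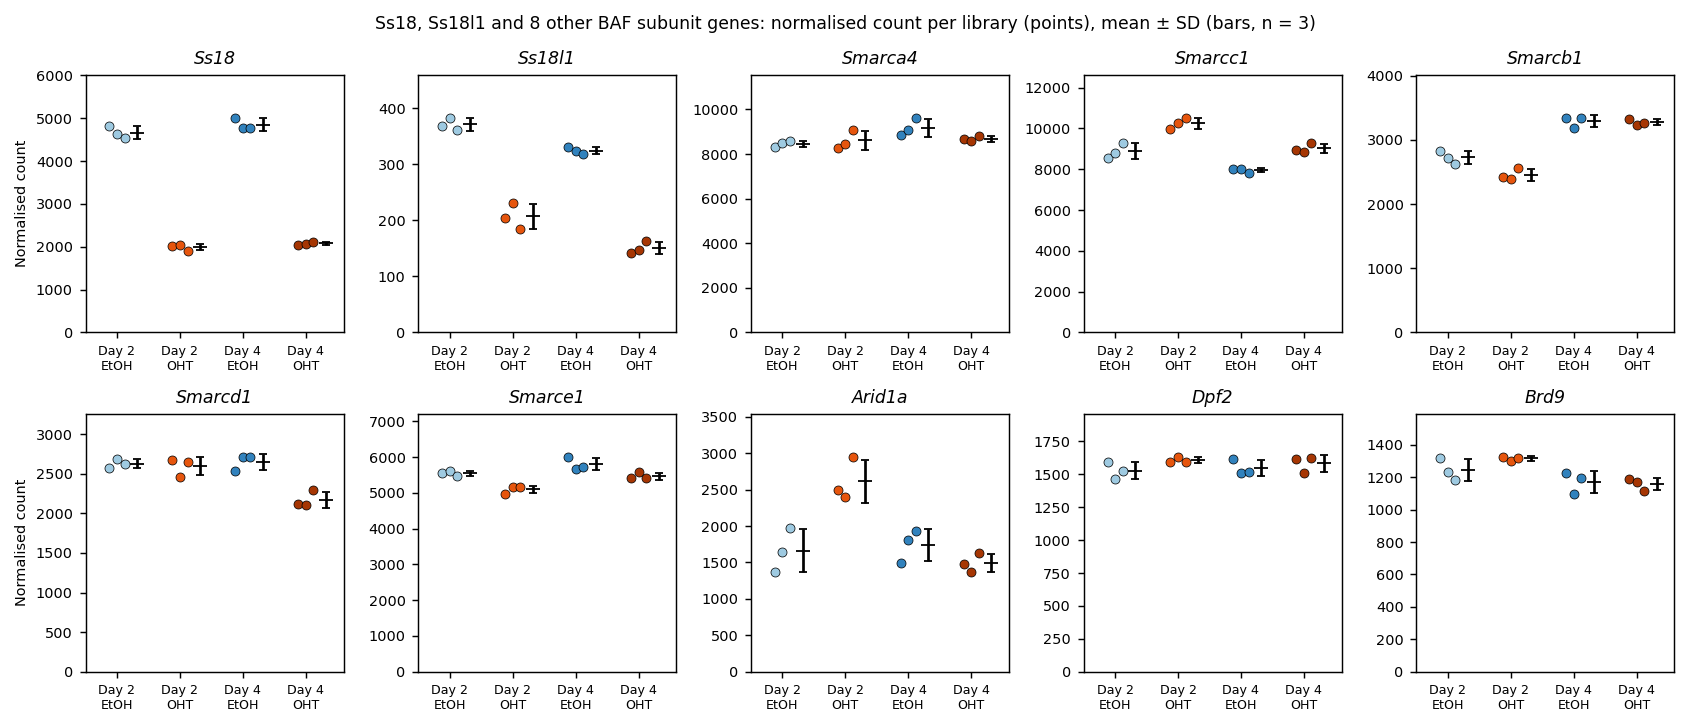
Normalised count of each of the 10 genes (y axis, linear from 0) in the 4 groups (x axis), with 1 point per library and the mean ± SD of 3 libraries beside them. *Ss18* and *Ss18l1* drop in OHT on both days, *Arid1a* is raised in OHT at Day 2 alone, and the other genes move little.

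TPM values, which correct for transcript length and so allow genes to be compared, placed *Ss18* far above its paralogue. At Day 2 the mean level of *Ss18* was 33.7 ± 0.601 TPM (SD, n = 3) in EtOH and 15.2 ± 1.05 TPM (SD, n = 3) in OHT. *Ss18l1* had 1.86 ± 0.0529 TPM (SD, n = 3) in EtOH against 1.10 ± 0.146 TPM (SD, n = 3) in OHT. By Day 4 *Ss18* stood at 38.6 ± 1.63 TPM (SD, n = 3) in EtOH and 16.2 ± 0.404 TPM (SD, n = 3) in OHT. For *Ss18l1* these values were 1.79 ± 0.0586 TPM (SD, n = 3) in EtOH against 0.817 ± 0.0723 TPM (SD, n = 3) in OHT.

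Summed over both paralogues, the Day 2 libraries held 36.2, 35.2 and 35.2 TPM in EtOH and 16.9, 17.0 and 14.9 TPM in OHT, a ratio of 0.459. At Day 4 the sum was 42.1, 40.2 and 38.8 TPM in EtOH and 16.7, 16.7 and 17.5 TPM in OHT, a ratio of 0.421. The groups did not overlap, and p was 0.1 on both days in an exact permutation test, two-sided, which is the smallest value that 3 libraries against 3 allow. *Ss18l1* made up 5.24% ± 0.214 (SD, n = 3) of the sum in EtOH and 6.76% ± 0.479 (SD, n = 3) in OHT at Day 2. At Day 4 the share was 4.43% ± 0.0823 (SD, n = 3) in EtOH and 4.80% ± 0.287 (SD, n = 3) in OHT. The libraries did not overlap on either day (exact permutation test, two-sided, p = 0.1 on both days). The share was higher in OHT while the level of *Ss18l1* was lower, as the point estimate of the fall was larger for *Ss18*. At Day 4 the 2 falls lay close, with log2 ratios of mean TPM of −1.25 for *Ss18* and −1.13 for *Ss18l1*. Their gap was not tested apart from the share. With *Ss18l2* added to the sum, the ratio of the *Ss18l1* share turned from 1.29 to 0.989 at Day 2 and from 1.08 to 0.860 at Day 4.

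**Figure D2:**
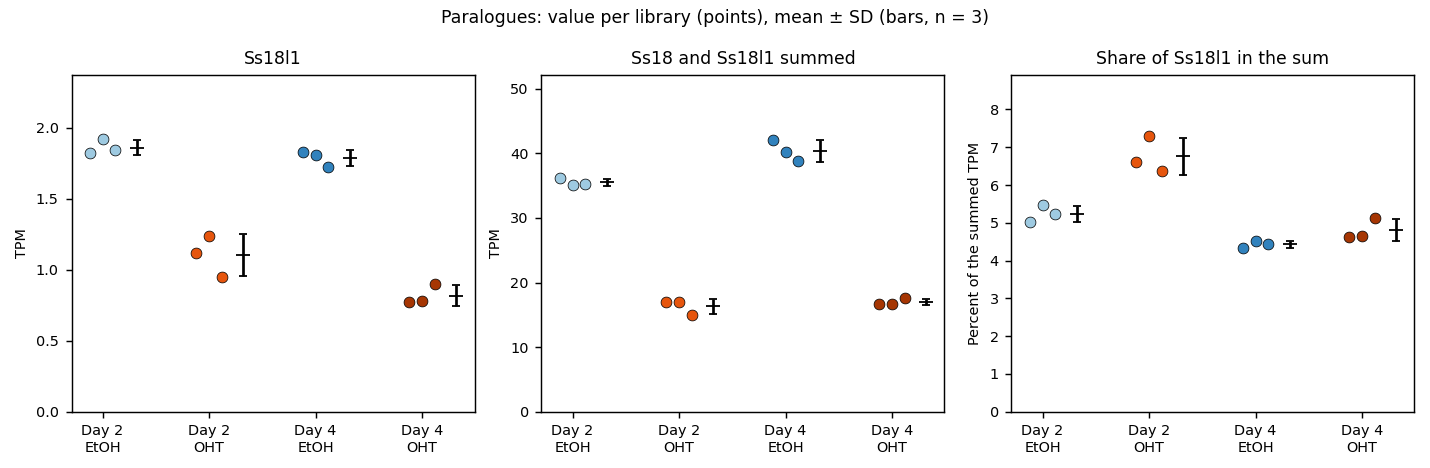
*Ss18l1* in TPM, the summed TPM of *Ss18* and *Ss18l1*, and the percent share of *Ss18l1* in that sum, with 1 point per library, the mean ± SD of 3 libraries beside them, and the 4 groups on the x axis. The sum falls from 35.5 to 16.3 TPM at Day 2 and from 40.4 to 17.0 TPM at Day 4, and *Ss18l1* stays below 2 TPM in every library.

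*Ss18l1* belongs, with *Actl6b*, *Dpf1* and *Dpf3*, to the subunits that are associated with neurons. *Actl6b* had a normalised count below 1 in every library, and *Dpf3* had a mean between 10.2 and 17.1 normalised counts in the 4 groups, so neither was tested. *Dpf1* had log2 fold changes of −0.10 (SE 0.11) at Day 2 and 0.04 (SE 0.09) at Day 4 and was not called on either day. Of 6 neural markers, *Sox1*, *Pax6*, *Neurod1* and *Rbfox3* were below 1 TPM in every library. The summed TPM of all 6 lay between 59.7 and 62.1 in EtOH and between 63.6 and 66.1 in OHT at Day 2, and between 65.2 and 69.7 in EtOH and between 39.0 and 41.5 in OHT at Day 4. Most of that sum was *Tubb3*, which had a log2 fold change of −0.79 (SE 0.04) at Day 4. The list did not move as one there, since *Sox1*, *Pax6* and *Map2* had a higher normalised count in every OHT library than in any EtOH library, with a log2 fold change of 0.37 (SE 0.13, adjusted p = 0.0211, DESeq2) for *Map2*, while *Neurod1* was lower in every OHT library and *Rbfox3* overlapped. The part of these markers in the result for *Ss18l1* was not tested. In bulk RNA, fewer cells of a type and less RNA per cell cannot be told apart.

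The other 8 genes changed far less than *Ss18*, and they did not move in 1 direction. At Day 2, 6 of the 10 genes were called (adjusted p below 0.05 with a mean above 100, DESeq2), against 19.8% of all genes tested. *Ss18*, *Ss18l1*, *Smarcb1* and *Smarce1* were lower, against 10.6% of all genes, and *Smarcc1* and *Arid1a* were higher, against 9.17%. At Day 4, 5 of the 10 were called, against 45.1% of all genes. *Ss18*, *Ss18l1*, *Smarcd1* and *Arid1a* were lower, against 21.7% of all genes, and *Smarcc1* was higher, against 23.5%. Leaving out *Ss18* and *Ss18l1*, the log2 fold changes of the 8 partners ranged from −0.15 to 0.66 at Day 2 with a median of 0.05, where the median of all genes was −0.03. At Day 4 they ranged from −0.29 to 0.18 with a median of −0.05, beside 0.01 for all genes. Normalised counts of OHT and EtOH did not overlap for 4 lower and 2 higher genes of the 10 at Day 2, against 26.9% and 18.7% of all genes, and for 5 lower and 1 higher at Day 4, against 29.5% and 33.5%.

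**Figure D3:**
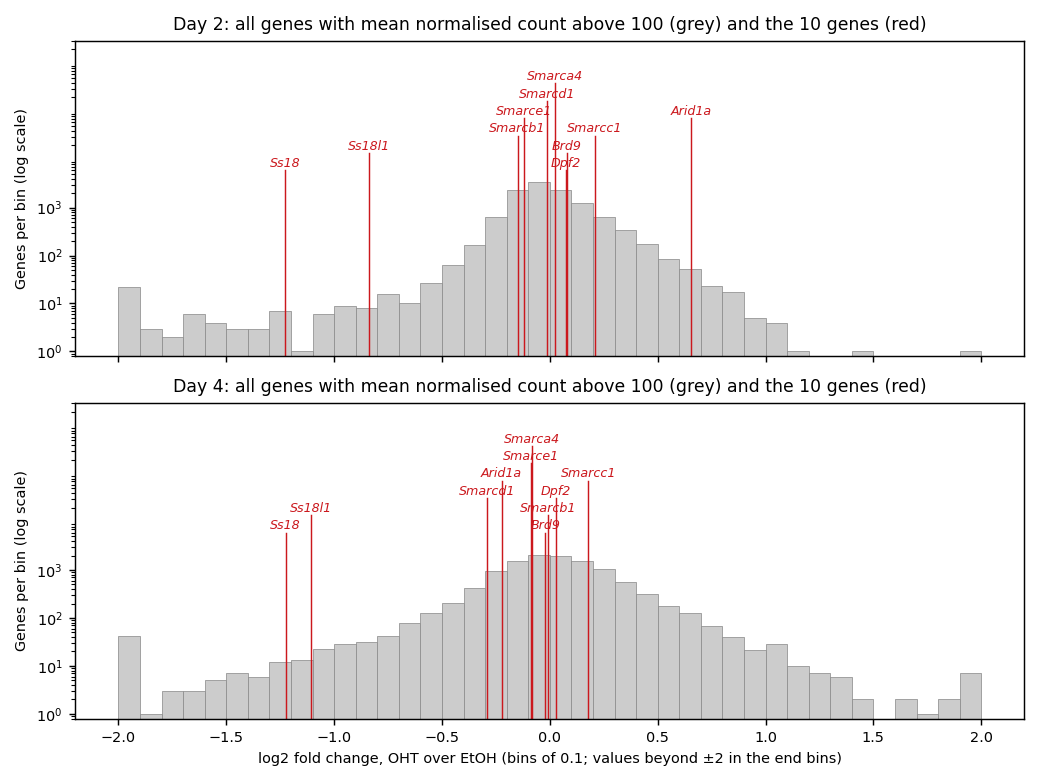
Number of genes (y axis, log scale) per bin of log2 fold change of OHT over EtOH (x axis) among all genes with a mean normalised count above 100, in grey, with red lines for the 10 genes. On both days *Ss18* and *Ss18l1* stand in the sparse left tail, *Arid1a* stands to the right at Day 2, and the rest lie inside the bulk of the genes.

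*Smarca4*, the ATPase, was not called on either day. It had 8319, 8499 and 8583 normalised counts in EtOH and 8291, 8468 and 9083 in OHT at Day 2, with groups that overlapped. At Day 4 it had 8859, 9070.3 and 9639.7 in EtOH and 8666, 8566 and 8819.8 in OHT, where every OHT library was lower. The log2 fold changes were 0.03 (95% interval −0.06 to 0.11) and −0.08 (95% interval −0.16 to −0.01, adjusted p = 0.0608, DESeq2). Without EtOH replicate 1 of Day 4, *Smarca4* was called lower there (log2 fold change −0.11, adjusted p = 0.00625, DESeq2), as it was with removal of the trend on gene length (−0.08, adjusted p = 0.0364, DESeq2). *Smarca2*, the alternative ATPase BRM, had at most 83.9 normalised counts in a library and was not tested.

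*Smarcc1* (BAF155), a scaffold of the core, rose on both days. Its counts were 8549, 8807 and 9295 in EtOH and 9979.8, 10257 and 10536 in OHT at Day 2, and 8024, 8028 and 7838 in EtOH and 8943, 8839 and 9284 in OHT at Day 4. No OHT library overlapped with EtOH on either day. The log2 fold change was 0.21 (SE 0.04, adjusted p = 9.55e-05, DESeq2) at Day 2 and 0.18 (SE 0.03, adjusted p = 7.12e-07, DESeq2) at Day 4, and the 2 changes differed by −0.03 (95% interval −0.13 to 0.07). The gene overlaps *Dhx30* on the other strand over 123 bases, and *Dhx30* had 6204 to 6445 normalised counts in EtOH and 5973 to 6199 in OHT at Day 2.

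*Smarcb1* (SNF5), the core subunit lost in rhabdoid tumours, had 2831, 2722 and 2628 normalised counts in EtOH and 2414, 2393 and 2567 in OHT at Day 2. Values at Day 4 were 3338, 3186 and 3348 in EtOH and 3329.5, 3236 and 3267 in OHT. The groups were apart at Day 2 and overlapped at Day 4. The Day 2 change of −0.15 (SE 0.05, adjusted p = 0.036, DESeq2) was not called with TMM factors (adjusted p = 0.0579, DESeq2), with total counts as scaling (adjusted p = 0.164, DESeq2), with effective lengths as offsets (adjusted p = 0.0515, DESeq2), with removal of the length trend (adjusted p = 0.191, DESeq2), or without EtOH replicate 1 or 2 or OHT replicate 1 or 2 (adjusted p from 0.133 to 0.217, DESeq2). The Day 4 value was −0.01 (95% interval −0.09 to 0.07).

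*Smarce1* (BAF57), which carries an HMG box, had 5558, 5611 and 5471 normalised counts in EtOH and 4978, 5155 and 5164 in OHT at Day 2. At Day 4 it had 6011, 5682 and 5729.8 in EtOH and 5415, 5588 and 5413 in OHT. Every OHT library was lower than every EtOH library on both days. *Smarce1* had a log2 fold change of −0.12 (SE 0.04, adjusted p = 0.0304, DESeq2) at Day 2 and −0.09 (SE 0.04, adjusted p = 0.0526, DESeq2) at Day 4. At Day 2 the mean effective length of *Smarce1* was 1777 ± 32.9 bases (SD, n = 3) in EtOH and 1646 ± 89.2 bases (SD, n = 3) in OHT, and with effective lengths as offsets the Day 2 change was −0.01 (adjusted p = 0.967, DESeq2). In TPM, which takes the same lengths, *Smarce1* had 65.6 ± 0.687 (SD, n = 3) in EtOH and 69.1 ± 3.31 (SD, n = 3) in OHT at Day 2, and 73.6 ± 1.57 (SD, n = 3) against 67.2 ± 0.0404 (SD, n = 3) at Day 4. Without EtOH replicate 1 or 2 or OHT replicate 1 or 2, the adjusted p at Day 2 was between 0.0648 and 0.146 (DESeq2), and that call was also lost with TMM factors, total counts and removal of the length trend (adjusted p from 0.0601 to 0.208, DESeq2). The Day 4 fall, which missed the threshold by a little, was called by edgeR's quasi-likelihood test (adjusted p = 0.0261) and by DESeq2 with total counts, effective lengths, removal of the length trend or all 12 libraries in one fit (adjusted p from 0.0178 to 0.0381).

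*Smarcd1* (BAF60A), a core subunit that contacts transcription factors, fell at Day 4 alone. It had 2570.1, 2684 and 2620.3 normalised counts in EtOH and 2679, 2465 and 2652 in OHT at Day 2, which overlapped. Day 4 libraries had 2533, 2715 and 2710.1 in EtOH and 2116, 2108 and 2291 in OHT, which did not. The log2 fold change was −0.01 (SE 0.05, adjusted p = 0.911, DESeq2) at Day 2 and −0.29 (SE 0.05, adjusted p = 1.82e-07, DESeq2) at Day 4. The 2 changes differed by −0.27 (SE 0.07, adjusted p = 8.74e-04, DESeq2 interaction test). *Gm17349*, which overlaps *Smarcd1* over 3315 bases on the other strand, had at most 1.98 normalised counts in a library.

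*Arid1a* (BAF250A), the subunit that defines canonical BAF and is often mutated in cancer, changed in opposite directions on the 2 days. It had 1374, 1637 and 1968 normalised counts in EtOH and 2490.2, 2403 and 2952 in OHT at Day 2. The Day 4 values were 1489, 1802 and 1929 in EtOH and 1478, 1372 and 1628 in OHT. All Day 2 OHT libraries lay above all EtOH libraries, whereas the groups overlapped at Day 4. The Day 2 EtOH libraries of *Arid1a* rose from replicate 1 to 3. Outside the 10 genes, so did those of *Gatad2b* (897, 1030 and 1136) and *Srcap* (1052, 1270 and 1299), while those of *Hdac2* did not (5870, 5753 and 5904). The coefficient of variation of *Arid1a* over the Day 2 EtOH libraries was 17.9%, above the 5.57% that the other 9 genes reached at most in that group. The log2 fold change was 0.66 (SE 0.18, adjusted p = 0.00325, DESeq2) at Day 2 and −0.22 (SE 0.08, adjusted p = 0.0196, DESeq2) at Day 4, and the difference of −0.88 (SE 0.22) was called (adjusted p = 5.53e-04, DESeq2 interaction test). The Day 4 fall was not called with total counts as scaling (adjusted p = 0.21, DESeq2), with effective lengths as offsets (adjusted p = 0.0788, DESeq2), with all 12 libraries in one fit (adjusted p = 0.285, DESeq2), or without EtOH replicate 2 or 3 or OHT replicate 1 or 2 (adjusted p from 0.175 to 0.408, DESeq2).

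*Dpf2* (BAF45D), the histone-reading subunit of canonical BAF, had 1595, 1468 and 1523 normalised counts in EtOH and 1593, 1633 and 1594 in OHT at Day 2. At Day 4 it had 1618, 1511 and 1520.5 in EtOH and 1617, 1506 and 1624 in OHT. *Brd9*, the bromodomain subunit of non-canonical BAF, had 1321, 1230.0 and 1184 in EtOH and 1326, 1301 and 1320.1 in OHT at Day 2, and 1224, 1097 and 1198 against 1186, 1169 and 1118 at Day 4. Groups of both genes overlapped on both days. The 95% intervals of the log2 fold change were −0.05 to 0.19 at Day 2 and −0.09 to 0.14 at Day 4 for *Dpf2*, and −0.05 to 0.21 and −0.15 to 0.11 for *Brd9*.

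The order of the 10 genes by mean TPM put *Smarce1* at the top and *Ss18l1* at the bottom in each group. In EtOH, *Ss18* was 4th on both days. Its libraries lay above those of *Smarca4*, the next gene, at Day 2 and overlapped with them at Day 4. In OHT it was 7th on both days, where it overlapped with *Brd9*, the next gene, at Day 2 and stood above it at Day 4. The ratio of *Ss18* to *Smarca4* in TPM was 1.08 ± 0.0585 (SD, n = 3) in EtOH and 0.450 ± 0.0366 (SD, n = 3) in OHT at Day 2. By Day 4 it was 1.03 ± 0.0784 (SD, n = 3) in EtOH against 0.463 ± 0.00612 (SD, n = 3) in OHT. Against *Brd9* the ratio averaged 2.55 in EtOH and lay between 1.03 and 1.11 in OHT libraries at Day 2, and it averaged 2.97 in EtOH and lay between 1.19 and 1.28 in OHT at Day 4. For *Dpf2* the means went from 2.11 to 0.866 at Day 2 and from 2.04 to 0.859 at Day 4. *Ss18* was thus above *Dpf2* in every EtOH library and below it in every OHT library.

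The change between the days was itself tested. It differed for 2 of the 10 genes, *Smarcd1* and *Arid1a*, against 32.3% of all genes, and both had the lower value at Day 4, against 13.6%. Without OHT, 3 of the 10 genes differed between Day 4 and Day 2, against 41.1% of all genes tested. *Smarca4* (log2 fold change 0.12, SE 0.04, adjusted p = 0.0158, DESeq2) and *Smarcb1* (0.27, SE 0.05, adjusted p = 4.1e-07, DESeq2) were higher at Day 4, against 20.6% of all genes, and *Smarcc1* was lower (−0.16, SE 0.04, adjusted p = 3.15e-04, DESeq2), against 20.5%. The call on *Smarca4* was lost without EtOH replicate 1 or 2 of Day 2 or EtOH replicate 3 of Day 4 (adjusted p from 0.0653 to 0.146, DESeq2). *Ss18l1* had a log2 difference of −0.20 (SE 0.11, adjusted p = 0.164, DESeq2), which edgeR's quasi-likelihood test called (adjusted p = 0.0271).

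The 19 further subunit genes of the complexes gave 15 with a mean above 100. Of these 15, 2 rose and 3 fell at Day 2, against 9.17% and 10.6% of all genes tested. At Day 4, 3 rose and 2 fell, against 23.5% and 21.7% of all genes, or 45.1% for both directions together. These counts of few genes were not tested against the background on either day. Over all 29 subunit genes, 25 were tested, and the median absolute log2 fold change was 0.12 at Day 2, beside 0.10 for all genes, and 0.08 at Day 4, beside 0.15 for all genes. *Smarcd2* (BAF60B), a core subunit, fell on both days, by 0.21 on the log2 scale (SE 0.05, adjusted p = 1.24e-04, DESeq2) at Day 2 and by 0.18 (SE 0.04, adjusted p = 3.49e-04, DESeq2) at Day 4. It had 3681, 3551 and 3602 normalised counts in EtOH and 3076, 3089.9 and 3173 in OHT at Day 2, and 3251, 3221 and 3327 against 2978, 2779.5 and 2921 at Day 4.

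Subunits of PBAF, the complex without SS18, moved apart from each other at Day 2. *Arid2*, its ARID subunit, rose from 3636, 3791 and 3939 normalised counts in EtOH to 4544, 4660.2 and 4735 in OHT (log2 fold change 0.30, SE 0.05, adjusted p = 6.47e-08, DESeq2). *Phf10* (BAF45A) fell from 3188, 3266 and 3081 to 2642, 2585 and 2523 (−0.30, SE 0.05, adjusted p = 1.74e-07, DESeq2). At Day 4 neither was called, with values of −0.05 (SE 0.05) for *Arid2* and 0.01 (SE 0.04) for *Phf10*. The bromodomain subunit gene *Brd7* rose at Day 4 by 0.13 on the log2 scale (SE 0.04, adjusted p = 0.00267, DESeq2), and *Pbrm1* was not called on either day, except without EtOH replicate 1 of Day 4 (−0.09, adjusted p = 0.0267, DESeq2). In non-canonical BAF, *Bicral* rose at Day 2 (0.25, SE 0.06, adjusted p = 0.00108, DESeq2), which was lost when the trend on gene length was removed (0.12, adjusted p = 0.192, DESeq2). *Bicra* had between 50.4 and 103 normalised counts in a library and was not tested.

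Among core subunits, *Actl6a* (BAF53A) was lower at Day 2 (−0.12, SE 0.04, adjusted p = 0.0203, DESeq2), a call that total counts as scaling ended (adjusted p = 0.185, DESeq2), as did removal of the length trend and leaving out EtOH replicate 1 or 2 or OHT replicate 2. *Smarcc2* (BAF170), the paralogue of *Smarcc1*, had a log2 fold change of 0.24 (SE 0.09, adjusted p = 0.0589, DESeq2) at Day 2 and was called higher at Day 4 (0.23, SE 0.09, adjusted p = 0.0303, DESeq2). The Day 2 change of *Smarcc2* was called by edgeR's quasi-likelihood test (adjusted p = 0.0215) and by DESeq2 with TMM factors, total counts or all 12 libraries in one fit (adjusted p from 0.0174 to 0.0495). *Smarcd3* (BAF60C), at 90.2 to 160.0 normalised counts in the Day 4 libraries, was called lower there (−0.46, SE 0.18, adjusted p = 0.0352, DESeq2). The Day 4 calls of *Smarcc2* and *Smarcd3* were lost with effective lengths as offsets (adjusted p = 0.0989 and 0.0551, DESeq2) and under leave-one-out with all but 1 of the 6 libraries, with adjusted p up to 0.135 for *Smarcc2* and 0.239 for *Smarcd3* (DESeq2). *Arid1b*, the paralogue of *Arid1a*, was called higher at Day 4 (0.25, SE 0.08, adjusted p = 0.0101, DESeq2), and without EtOH replicate 2 or OHT replicate 3 it was not (adjusted p = 0.0974 and 0.126, DESeq2). With effective lengths as offsets, *Arid1b* was called at Day 2 (0.33, adjusted p = 0.012, DESeq2) and not at Day 4 (adjusted p = 0.13, DESeq2). *Actb*, *Bcl7a*, *Bcl7b*, *Bcl7c* and *Dpf1* were not called on either day by DESeq2. *Bcl7c*, which is also on the list of bound genes, was however lower in every OHT library at Day 2. It was called there by edgeR's quasi-likelihood test (−0.18, adjusted p = 0.0385), with all 12 libraries in one fit (adjusted p = 0.0258, DESeq2) and without OHT replicate 1 (adjusted p = 0.0316, DESeq2).

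**Figure D4:**
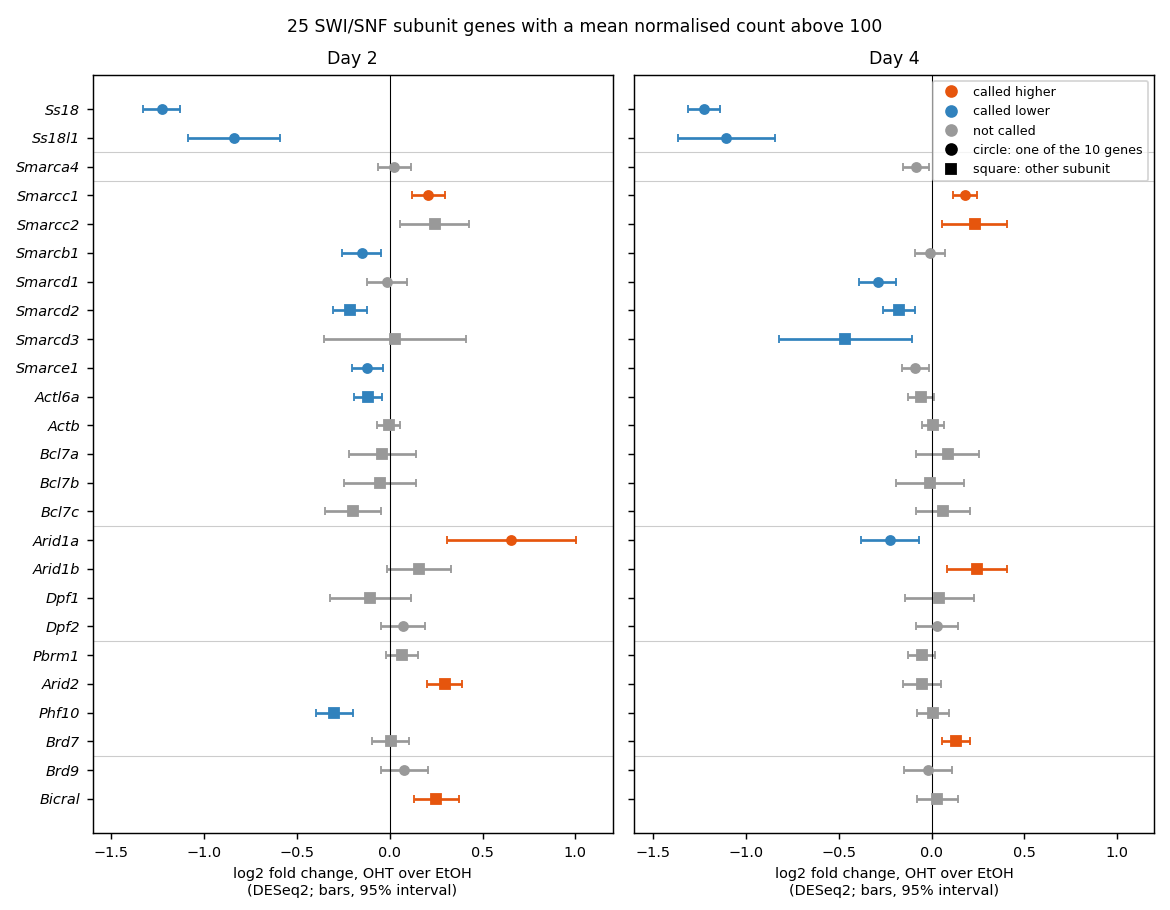
Log2 fold change of OHT over EtOH (x axis) with its 95% interval for 25 subunit genes (y axis) at Day 2 and Day 4, coloured by whether the gene was called, with lines between the SS18 pair, the ATPase, the core, canonical BAF, PBAF and non-canonical BAF. *Ss18* and *Ss18l1* lie below −0.8 on both days, while the other 23 genes lie between −0.46 and 0.66.

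Other remodelling and chromatin complexes were set beside these genes, and their counts are to be read against the 19.8% of all genes called at Day 2 (9.17% higher, 10.6% lower) and the 45.1% called at Day 4 (23.5% higher, 21.7% lower). Of 11 ISWI genes, 4 rose and 2 fell at Day 2, and 1 rose and 3 fell at Day 4, the ATPase gene *Smarca1* (SNF2L) having the largest called change at Day 4 (−0.43, SE 0.09, adjusted p = 3.18e-05, DESeq2). Of 20 genes of NuRD and the CHD family, 5 rose and 3 fell at Day 2, and 2 rose and 7 fell at Day 4. The number called was above the background share at Day 2. At Day 4 it was near that share, with more falls than rises. *Hdac2*, a deacetylase of NuRD, led these genes with −1.33 (SE 0.05) at Day 2 and −1.47 (SE 0.05) at Day 4, beside −1.23 for *Ss18* on both days. It too is on the list of bound genes, as are *Hdac1*, *Cecr2*, *Srcap* and *Eed* of the genes compared here. These did not move in 1 direction. At Day 2 every OHT library was higher than every EtOH library for *Cecr2* and *Srcap*, and lower for *Hdac1* and *Eed*. At Day 4 *Hdac1* was again lower, while *Cecr2*, *Srcap* and *Eed* overlapped. Of 20 INO80, SRCAP and TIP60 genes, 5 rose and 3 fell at Day 2, and none rose and 8 fell at Day 4. *Srcap*, the ATPase gene of its complex, was higher at Day 2 (0.49, SE 0.16, adjusted p = 0.0189, DESeq2) and lower at Day 4 (−0.33, SE 0.09, adjusted p = 0.00108, DESeq2), the same signs as *Arid1a*. As with *Arid1a*, the Day 4 libraries of *Srcap* overlapped. The signs were not particular to these genes. For *Chd5*, *Gatad2b*, *Chd7*, *Chd8* and *Phf19*, every OHT library was higher than every EtOH library at Day 2 and lower at Day 4. Of all genes, 18.7% were higher without overlap at Day 2 and 29.5% lower without overlap at Day 4. The share of all genes with both was not counted. Of 9 PRC2 genes, 1 fell at Day 2, and 4 rose and 1 fell at Day 4, the largest called change there being that of *Phf19* (−0.24, SE 0.08, adjusted p = 0.00646, DESeq2).

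Over the 12 libraries, the genes whose log2 normalised counts ran most like those of *Ss18* among 11616 genes were *Hdac2*, *Timm17b* and *Asah1*, with Pearson's r of 0.997, 0.996 and 0.995. *Timm17b*, a subunit of the mitochondrial import machinery, had log2 fold changes of −1.04 (SE 0.08) and −1.01 (SE 0.07), and *Asah1*, the lysosomal acid ceramidase, had −0.93 (SE 0.05) and −0.83 (SE 0.04). For *Ss18l1* they were *Psip1*, *Ephb2* and *Ndst2*, with r of 0.988, 0.983 and 0.983. *Psip1*, which encodes the chromatin protein LEDGF, went from −1.69 (SE 0.06) at Day 2 to −2.57 (SE 0.05) at Day 4, the receptor gene *Ephb2* from −2.73 (SE 0.13) to −3.61 (SE 0.16), and *Ndst2*, an enzyme of heparan sulphate, from −2.21 (SE 0.18) to −3.02 (SE 0.23). All 6 genes are on the list of bound genes, which holds 627 of the 54146 genes in the libraries. The share of bound genes among the 11616 compared was not counted. These 6 were picked for likeness to 2 bound genes that fell, so their number is no separate result. *Ss18l1* ranked 173rd in likeness to *Ss18*, with r = 0.918. The 12 points share the split into OHT and EtOH, so that these r describe a common step between groups.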

How the data were processed

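RNA-seq libraries were assigned to 4 groups of 3 by sample title. Per the study's methods and the submitters' processing notes, STAR (2.6.0c) was the authors' aligner, GRCm38.p6 their genome, and RSEM with GENCODE vM18 their counter. The deposited expected counts are RSEM's estimates of read pairs per gene and need not be whole. The deposited TPM values are scaled to each library and gene length. The authors' effective lengths and posterior SDs come from the same step. The posterior SD was at most 0.156% of the count for the 10 genes, so that few reads were shared with other genes. The authors' tables of DESeq2 (1.22.2) fold changes and p-values served to pair gene IDs with symbols, and their values were not used. Whether counting used strand is not given in the sources used here.

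Expected counts were rounded and tested with DESeq2 (1.42.0, R 4.3.3; Wald test, median-of-ratios, Benjamini-Hochberg) over all genes, per day, as an interaction over 12 libraries, and between days in EtOH. A gene was called at an adjusted p under 0.05 where its mean exceeded 100 normalised counts. Intervals are estimates ± 1.96 SE. Summed TPM was compared by exact permutation (scipy 1.17.1). The code was tested on simulated data. The members, lists and comparisons were chosen with earlier results of these data known. Named genes are *Prdm10*, the members, *Ss18l2*, the other subunits and the largest called Day 4 change of each context list. The 3 genes most like *Ss18* and *Ss18l1* by Pearson's r of log2(normalised count + 1) are named as well. Context genes on the bound list are named too. So are those higher at Day 2 and lower at Day 4 without overlap, which were picked for that pattern. The neighbours *Psma7* and *Psma8*, genes that overlap members, and the markers are named besides. Alternatives were edgeR (4.0.16), TMM, total counts, effective lengths, removal of a loess length trend (span 0.3), the replicate number as a block, all libraries in one fit, no minimum mean, and each library left out. They were also run for *Prdm10*, *Ss18l2*, *Hdac2*, *Psma7* and *Psma8*, a choice made after seeing the data. Replicates are separate samples by their labels, but nothing names separate cultures, so p-values measure the spread between these samples. No 2 replicates were alike within counting noise, as chi-square was at least 3.41 per gene. Without molecular identifiers, read pairs are not independent molecules.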

Additional observations from a re-analysis of the deposited data

Results flagged for a closer look

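The treatment effect differed between the days for 2 of the 10 genes, *Arid1a* and *Smarcd1*, and for 4 other subunit genes, by the interaction test of DESeq2 over 12 libraries, which called 32.3% of all genes tested. The Day 4 log2 fold change minus that at Day 2 was −0.88 (SE 0.22, adjusted p = 5.53e-04) for *Arid1a*, which was higher in 3 of 3 OHT libraries at Day 2. It was −0.27 (SE 0.07, adjusted p = 8.74e-04) for *Smarcd1*, which was lower in 3 of 3 OHT libraries at Day 4. For *Phf10* it was 0.31 (SE 0.06, adjusted p = 5.6e-07) and for *Arid2* −0.34 (SE 0.07, adjusted p = 1.63e-05), both moving at Day 2. The values for *Bicral*, −0.22 (SE 0.08, adjusted p = 0.0411), and *Bcl7c*, 0.26 (SE 0.10, adjusted p = 0.0333), stood nearest to the threshold and were lost with removal of the length trend (adjusted p = 0.58 and 0.161). For each of these genes, leaving out any 1 of 8 of the 12 libraries also ended the call (adjusted p up to 0.136 for *Bicral* and 0.14 for *Bcl7c*), as did effective lengths as offsets (adjusted p = 0.075 and 0.319) and the replicate block (adjusted p = 0.0563 and 0.0615). The call on *Bcl7c* was lost with total counts as scaling too (adjusted p = 0.0973).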

How the results depend on the processing

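*Ss18*, *Ss18l1*, *Smarcc1* and *Smarcd2* kept their direction and their call under all 14 alternatives on both days, with log2 fold changes of −1.25 to −1.19 and −1.24 to −1.20 for *Ss18*, and −0.93 to −0.77 and −1.17 to −1.07 for *Ss18l1*. At Day 2, 11 subunits were called, against 7 with removal of the length trend and 7 with the replicate block and that removal. Adding *Ss18l2* moved the ratio of the summed TPM from 0.459 to 0.598 at Day 2 and from 0.421 to 0.531 at Day 4, and turned that of the *Ss18l1* share to 0.989 and 0.860.

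Leaving out 1 library changed the number of the 10 genes called from 6 to between 4 and 6 at Day 2 and from 5 to between 4 and 6 at Day 4, and that of all subunits from 11 to between 8 and 11 and from 10 to between 7 and 10. No pairing by replicate number was visible. Deviations of same-numbered libraries correlated at −0.04 to 0.08 at Day 2 and −0.23 to 0.12 at Day 4, and not every library correlated best with its own number. With 3 libraries per group, this check cannot exclude that same-numbered samples were paired. With the replicate block, 4 of the 10 genes were called at Day 2 and 5 at Day 4, and 8 subunits on each day. The Day 2 calls lost with removal of the length trend were those of *Smarcb1*, *Smarce1*, *Actl6a* and *Bicral*, and the first 3 were also lost with total counts as scaling and without some single libraries. The cause was not tested. Subunits at a mean of 100 or less are limited by depth.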
